A study of Mus musculus with 2 samples.

Results

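The 10 genes of the sarcoplasmic reticulum (SR) and of calcium cycling described here were taken from 2 mouse heart sections by their symbols in the deposited gene list: Atp2a2, Pln and Sln of SR calcium uptake, Ryr2, Fkbp1b, Casq2, Casq1 and Jph2 of SR calcium release and storage, and Cacna1c and Slc8a1 of calcium entry and exit at the sarcolemma. All 10 were found among the 19465 measured genes, and each had at least 20 UMIs over both sections. Transcripts were measured by Visium CytAssist on formalin-fixed, paraffin-embedded tissue, an assay which hybridizes probe pairs to each transcript, moves them onto barcoded array spots and counts them by unique molecular identifiers (UMIs). The control mouse was α-MHC-MerCreMer+/− and the transgenic mouse α-MHC-MerCreMer+/− hTOP2B LSL/−, and 1 section of 5 μm was profiled from each heart. In the transgenic mouse a CAG promoter drives a human TOP2B cDNA at the Rosa26 locus once a LoxP-flanked STOP cassette is removed, and the tamoxifen-dependent Cre that removes it is driven by the cardiomyocyte promoter of α-MHC. Both mice carried the Cre and received a single intraperitoneal dose of 80 mg/kg tamoxifen, so by their labels only the hTOP2B LSL allele separated the groups. The study's methods give this dose to 6-week-old mice. The sex of the animals, the time between dose and harvest, and the level at which each heart was cut were not given in the sources used here.

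In a cardiomyocyte, depolarization opens L-type calcium channels in the T-tubules, and the entering calcium opens ryanodine receptors in the facing SR membrane, which releases the calcium that starts contraction. For relaxation the calcium is pumped back into the SR by SERCA2a, under the brake of phospholamban, and the amount that entered is removed by the sodium-calcium exchanger. Inside the SR, calsequestrin binds calcium close to the release channel. Lower SERCA2a and higher sodium-calcium exchanger are textbook features of failing heart muscle.

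The control section held 1256 spots and 14376300 UMIs, and the transgenic section 924 spots and 12953389 UMIs, with medians of 11336 and 14531 UMIs per spot. UMIs were summed over the spots of a section and divided by its total, giving UMIs per 1000000 UMIs (CPM). Because each group had 1 section, nothing was tested and replicates could not be compared. Parentheses give 95% intervals (exact Poisson for a level, exact conditional binomial for a log2 ratio, Clopper–Pearson for a share), which cover counting error only. A spot holds several cells, so in these sums fewer cells of a type and less RNA per cell cannot be told apart. The 11 cardiomyocyte markers made up 11.1% of control UMIs and 6.52% of transgenic UMIs, and 9 of them were lower in the transgenic section. The 5 erythroid markers went from 0.215% to 2.04% and the 6 fibroblast markers from 0.0758% to 0.218%. The part of these shifts in the results below was not tested, except where values for selected spots are given. Mouse Top2b, the counterpart of the transgene, was at 106 CPM (control) and 102 CPM (transgenic). No human gene was among the features, so this check does not read the transgene itself unless the mouse probes also bind human TOP2B, which is not stated in the sources used here.

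Together the 10 genes took 2.94% of all control UMIs and 1.16% of all transgenic UMIs. By CPM 7 of them were lower in the transgenic section and 3 higher, where 36.8% of all genes tested were lower, although Ryr2 and Sln changed direction under some of the other settings described below. Their median log2 ratio of transgenic over control CPM was -0.78, beside 0.20 over all 15236 genes with at least 20 UMIs. Cacna1c, Atp2a2, Casq2, Jph2 and Pln were at least 2-fold lower, which is 5 of 10 beside 5.61% of all genes tested. Only Fkbp1b was at least 2-fold higher, beside 13.7% of all genes tested. To show the spread inside a section, its spots were divided by position into 4 quadrants around the tissue midpoint. All 4 transgenic quadrants lay below all 4 control quadrants for 6 of the genes, beside 13.1% of all genes tested, and above them for 3, beside 30.4%. Quadrants of 1 section are not replicates, and their range shows only the spread inside that section. Sln was the gene whose quadrants overlapped.

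**Figure D1:**
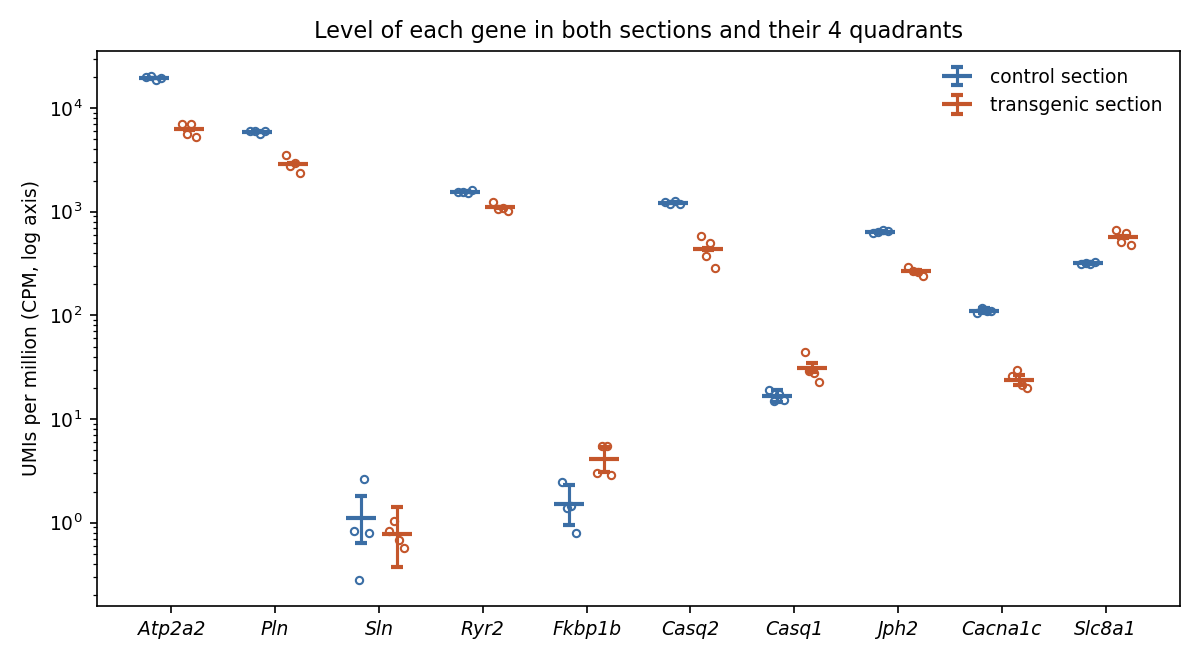
Level of each gene in CPM on a log axis, in the control section (blue) and the transgenic section (orange). Horizontal bars are whole sections with 95% Poisson intervals and open circles the 4 quadrants. Circles of the 2 sections are apart for 9 genes and overlap for Sln, and Slc8a1, Casq1 and Fkbp1b are the genes with transgenic circles above the control ones. Heights of different genes cannot be compared, since each gene has its own probes.

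Of the uptake genes, Atp2a2, which encodes the SERCA2 pump, stood at 19619 CPM (19547 to 19691) in control tissue and at 6228 CPM (6185 to 6271) in transgenic tissue. The quadrants ran from 18672 to 20400 CPM in the control and from 5202 to 7041 CPM in the transgenic section. The transgenic level was therefore 3.15-fold lower, far outside the range inside either section, with a log2 ratio of -1.66 (-1.67 to -1.64). Pln, which encodes phospholamban, the inhibitor of that pump, was at 5925 CPM (5886 to 5965) in control and 2904 CPM (2875 to 2934) in transgenic tissue. This was 2.04-fold lower, with a log2 ratio of -1.03 (-1.05 to -1.01) and quadrants of 5620 to 6030 against 2374 to 3500 CPM. Sln, which encodes sarcolipin, the small pump regulator of atrium and slow skeletal muscle, had 16 control and 10 transgenic UMIs. Its log2 ratio of -0.53 (-1.83 to 0.70) left the direction undetermined at this depth. The sign turned under 4 of 12 other settings, among them interior spots (0.26), scaling to cardiomyocyte markers (0.24) and leaving out the 10% of spots richest in atrial markers (0.67).

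The uptake genes did not move in proportion. For each UMI of Atp2a2 there was 0.302 UMI of Pln in control tissue (0.300 to 0.304) and 0.466 in transgenic tissue (0.461 to 0.472). The ratio was thus 1.54-fold higher in the transgenic section (1.52 to 1.57), and its quadrants ran from 0.296 to 0.311 in the control and from 0.421 to 0.497 in the transgenic section. Because probes of different genes capture with different efficiency, the ratio itself is not a ratio of molecules. Its change between sections does not depend on how the sections are scaled. Nor does it depend on capture, as long as the relative efficiency of the probes is alike in both sections, which was not tested. In spots with at least 20 UMIs of the pair, Pln held 23.2% of them at the median control spot and 31.8% at the median transgenic spot. Its 10th to 90th percentile over spots was 18.3% to 27.9% in the control, beside 19.9% to 26.5% for counting error around 1 constant share. In the transgenic section the percentiles were 24.3% and 39.6%, beside 26.4% and 37.2% for counting error. The spread over spots was thus wider than counting error gives in both sections.

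Among the release genes, Ryr2, the cardiac ryanodine receptor, stood at 1558 CPM (1538 to 1578) in control and 1101 CPM (1083 to 1119) in transgenic tissue, with quadrants of 1523 to 1611 against 1015 to 1231 CPM. The 1.41-fold lower level, a log2 ratio of -0.50 (-0.53 to -0.47), was the smallest shift of the 7 abundant genes, and it turned to 0.27 when the sections were scaled to the summed UMIs of the cardiomyocyte markers. Casq2, the cardiac calsequestrin that stores calcium beside the release channel, was at 1220 CPM (1202 to 1238) and 436 CPM (425 to 448), 2.80-fold lower in the transgenic section. Jph2, the junctophilin that holds the SR against the T-tubule, was at 644 CPM (631 to 657) and 266 CPM (258 to 276), 2.42-fold lower. For each UMI of Ryr2, Casq2 thus went from 0.783 to 0.396 UMI, a change of 0.506-fold (0.487 to 0.524), and Jph2 from 0.413 to 0.242, a change of 0.586-fold (0.560 to 0.612). Casq2 and Jph2 were thus lower relative to the channel gene as well as to the section total, and the quadrants of both ratios were apart between the sections.

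The other 2 release genes were higher in the transgenic section. Casq1, the calsequestrin of fast skeletal muscle, had 239 UMIs or 16.6 CPM (14.6 to 18.9) in control and 407 UMIs or 31.4 CPM (28.4 to 34.6) in transgenic tissue, a log2 ratio of 0.92 (0.68 to 1.15). Per UMI of Casq2 it was 5.29-fold higher (4.50 to 6.22). Fkbp1b, which encodes the FKBP12.6 protein bound to the ryanodine receptor, had 22 control and 53 transgenic UMIs, a log2 ratio of 1.42 (0.68 to 2.21). At such low counts the size of that ratio is uncertain. With 1 CPM added to both sections it was 1.01. The 11 skeletal muscle markers together had 392 UMIs in the control and 3573 in the transgenic section, of which up to 2939 belonged to 1 marker. Of the 11, 7 were higher and 4 lower in the transgenic section. None of the markers was at 0, and their part in the level of Casq1 was not tested.

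At the sarcolemma the entry and exit genes lay in opposite directions. Cacna1c, the pore subunit of the L-type calcium channel, had 1598 UMIs or 111 CPM (106 to 117) in control and 312 UMIs or 24.1 CPM (21.5 to 26.9) in transgenic tissue. Its log2 ratio of -2.21 (-2.39 to -2.03), a 4.61-fold lower level, was the lowest of the 10 genes and stood at percentile 0.502 of all genes tested. Slc8a1, the sodium-calcium exchanger NCX1, was at 320 CPM (310 to 329) in control and 570 CPM (557 to 584) in transgenic tissue. Its level was 1.78-fold higher, with a log2 ratio of 0.84 (0.78 to 0.89) and quadrants of 312 to 328 against 474 to 665 CPM. That log2 ratio stood at percentile 82.3 of all genes tested, whose median was 0.20, so it was less extreme than that of Cacna1c. Under all 12 other settings tried, Slc8a1 stayed higher in the transgenic section, with a log2 ratio between 0.68 and 1.60. The ratio of Slc8a1 to Cacna1c went from 2.88 (2.72 to 3.05) to 23.7 (21.1 to 26.6), an 8.24-fold change (7.25 to 9.35). The ratio of Slc8a1 to Atp2a2, exchanger over pump, went from 0.0163 to 0.0916, a 5.62-fold change (5.41 to 5.84). Of the 11 ratios that were formed among these genes, 9 had quadrants that did not overlap between the sections, and the 2 that did were those of Sln. These ratios share genes, so they do not count as separate observations. No such share was computed for pairs of all genes. Of all single genes tested, 13.1% had every transgenic quadrant below the control ones and 30.4% above them.

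The upstream sequence of 3 of the genes is shown because they stand for the patterns above, a pump regulator and a storage protein that were lower and the exchanger that was higher. The RefSeq table on GRCm38.p6 held 11 windows for 8 of the 10 genes. Each window shown is the 250 bases before the annotated transcript start, read 5′ to 3′ on the gene's strand: chr10:53337436-53337685 on the plus strand for Pln, chr3:102086165-102086414 on the plus strand for Casq2, and chr17:81738388-81738637 on the minus strand for Slc8a1. Capitals mark matches on either strand to the GATA motif (AGATAA, its variant TGATAA, or either with a final G, so AGATAG and also TGATAG) in Pln and Slc8a1 and to the MEF2 consensus in Casq2.
Pln: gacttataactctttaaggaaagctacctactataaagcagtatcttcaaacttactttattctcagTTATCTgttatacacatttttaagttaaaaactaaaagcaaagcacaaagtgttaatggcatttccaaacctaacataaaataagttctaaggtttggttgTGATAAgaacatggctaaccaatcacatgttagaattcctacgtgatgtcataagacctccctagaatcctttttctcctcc
Casq2: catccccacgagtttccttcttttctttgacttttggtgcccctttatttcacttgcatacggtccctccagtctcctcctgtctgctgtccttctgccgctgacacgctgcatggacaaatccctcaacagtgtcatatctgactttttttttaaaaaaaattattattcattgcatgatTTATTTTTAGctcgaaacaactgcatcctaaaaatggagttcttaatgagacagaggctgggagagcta
Slc8a1: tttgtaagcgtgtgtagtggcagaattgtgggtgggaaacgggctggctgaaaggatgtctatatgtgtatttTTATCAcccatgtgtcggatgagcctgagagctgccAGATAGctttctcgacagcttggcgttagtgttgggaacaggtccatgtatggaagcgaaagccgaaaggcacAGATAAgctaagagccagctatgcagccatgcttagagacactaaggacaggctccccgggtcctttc
Pln had 2 GATA matches and Slc8a1 had 3, while Casq2 had the single MEF2 match among the 11 windows. A GATA match was held by 4 of the 11 windows, beside 26.5% of all 32851 windows of that length. A MEF2 match was held by 1, beside 2.92%. The windows of Ryr2, Fkbp1b, Casq1 and Jph2, which are not shown, held neither. The CArG box and the MCAT motif (CATTCC), searched on both strands, were found in none of the 11 windows, beside 1.47% and 12.6% of all windows. The windows of Pln, where the level was lower, and of Slc8a1, where it was higher, thus both held GATA matches, as did 2 of the 3 windows of Cacna1c.

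Share of spots with at least 1 UMI gave the same order for the sparse genes. Cacna1c was seen in 68.9% of control spots (66.2% to 71.4%) and 27.1% of transgenic spots (24.2% to 30.0%). Casq1 was seen in 14.2% (12.3% to 16.2%) and 32.5% (29.5% to 35.6%), and Fkbp1b in 1.75% (1.10% to 2.64%) and 5.52% (4.14% to 7.19%). After each spot was thinned to 8134 UMIs, leaving out 140 control and 78 transgenic spots below that depth, these shares were 58.6% and 17.7% for Cacna1c, 10.7% and 22.1% for Casq1, and 1.31% and 3.29% for Fkbp1b. The directions were thus kept at equal depth. Sln was seen in 13 control spots and 10 transgenic spots, about 1% of each section, and each of the other 6 genes was seen in at least 91.7% of spots of either section.

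The abundant genes had higher scores of spatial pattern in the transgenic than in the control section, although most of them ranked alike among all genes. Moran's I, which the authors deposited for each gene and section, is near 0 for a random pattern and near 1 where neighboring spots resemble each other. For Atp2a2 it was 0.0605 in the control and 0.622 in the transgenic section, for Pln 0.119 and 0.621, for Ryr2 0.0854 and 0.525, for Casq2 0.0903 and 0.451, and for Slc8a1 0.0328 and 0.389. Jph2 followed with 0.00590 and 0.232. Among 12242 control and 12441 transgenic genes with at least 20 UMIs in the section, Atp2a2 stood at percentiles 98.2 and 99.6. Pln stood at 99.4 and 99.6, Ryr2 at 99.0 and 99.1, Casq2 at 99.1 and 98.4, and Slc8a1 at 95.7 and 97.9. Jph2 moved more, from 62.0 to 95.2. Apart from Jph2 these genes thus ranked alike in both sections, so the higher scores were not particular to them. Cacna1c was at 0.00892 and 0.0624, which are percentiles 71.0 and 81.0. Casq1 was at 0.0946 and 0.0737, which are percentiles 99.2 and 84.0, so it ranked lower in the transgenic section. For both genes few UMIs per spot limit what the score can show.

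**Figure D2:**
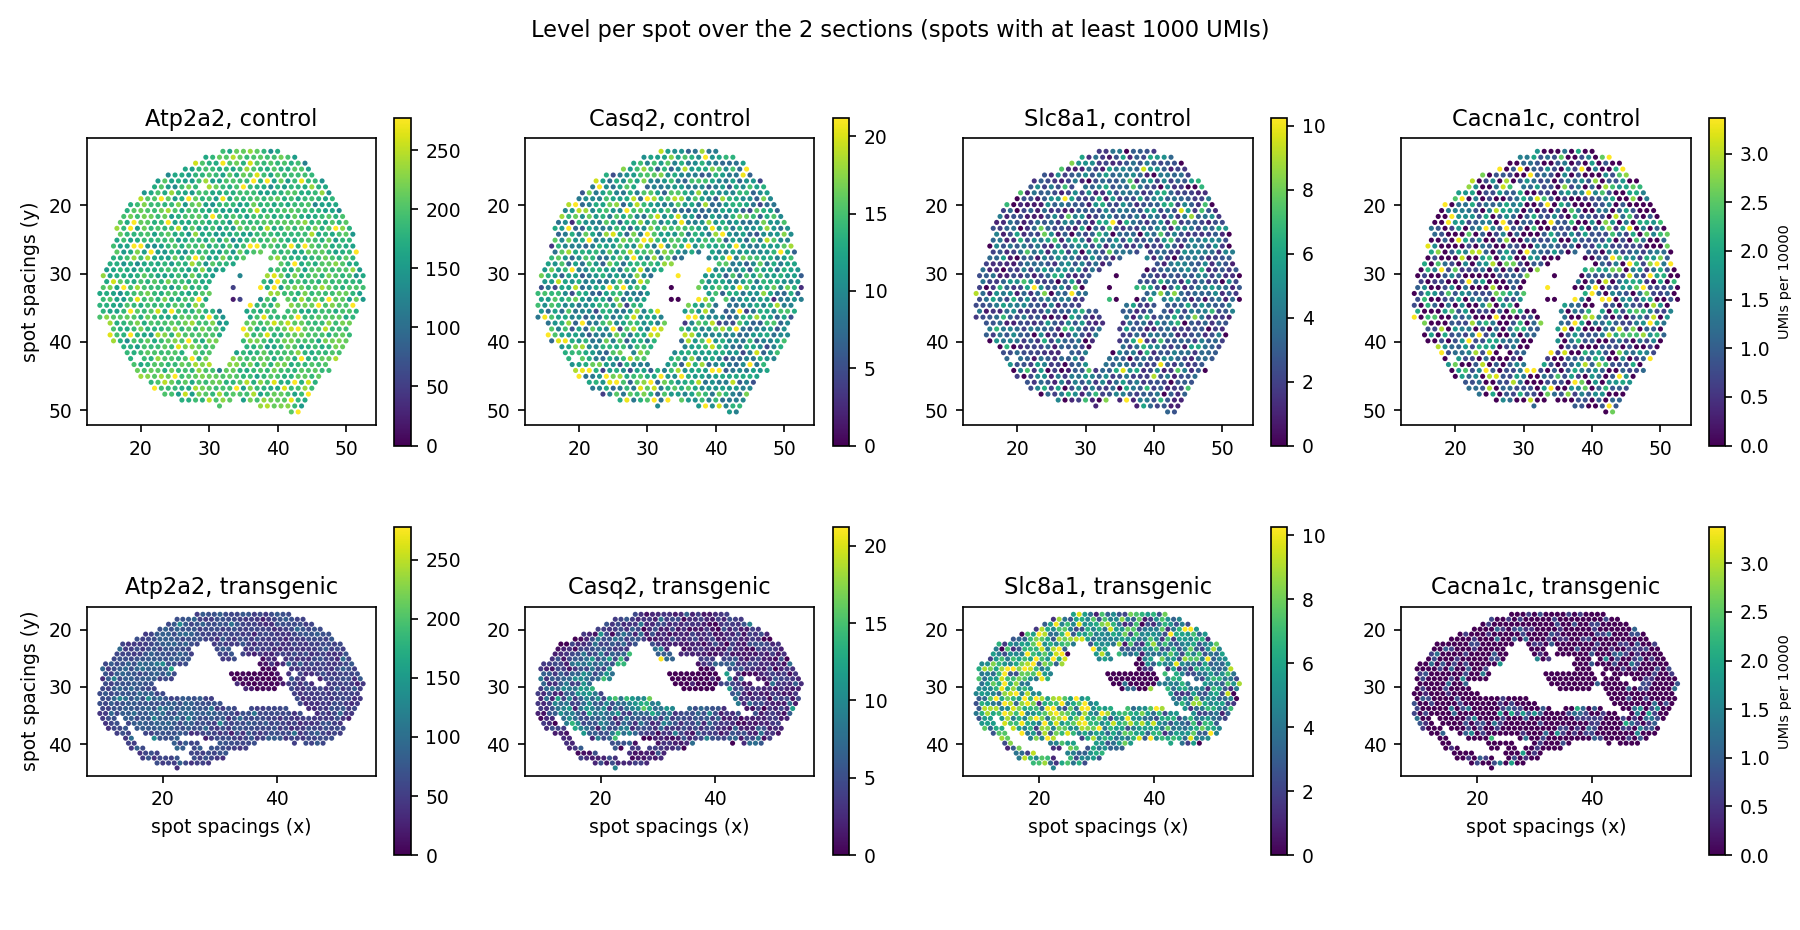
Level per spot, in UMIs per 10000, of Atp2a2, Casq2, Slc8a1 and Cacna1c over the control section (top) and the transgenic section (bottom), with 1 color scale per gene and axes in spot spacings. The control section shows no region of its own for any of the 4 genes, apart from a few dark spots. In the transgenic section Atp2a2, Casq2 and Slc8a1 are highest toward the left. The quadrants of Atp2a2 are at 7041 and 7016 CPM on the left and at 5646 and 5202 CPM on the right. A dark patch holds blood-rich spots, which average 2066 CPM of Atp2a2 against 6325 CPM in the other spots.

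Blood-rich spots bore on these patterns. In 54 transgenic spots, 5.84% of the section, erythroid markers held at least 10% of the UMIs, against 8 control spots, and these 54 spots held 60.5% of the section's erythroid UMIs but 2.28% of all its UMIs. Cardiomyocyte markers made up 2.33% of UMIs there and 6.62% in the other transgenic spots. Without these spots the levels hardly moved, with log2 ratios of -1.63 for Atp2a2, -2.19 for Cacna1c and 0.86 for Slc8a1. The patterns over spots moved more. Moran's I recomputed on log2 of UMIs per 10000 plus 1, over spots with at least 1000 UMIs, went from 0.781 to 0.451 for Atp2a2, from 0.739 to 0.524 for Pln, from 0.590 to 0.241 for Ryr2, from 0.421 to 0.163 for Slc8a1 and from 0.248 to 0.0926 for Jph2 when these transgenic spots were left out. Casq2 changed least of the 6 genes with the highest transgenic scores, from 0.513 to 0.434. In the control section the same score was 0.0333 for Casq2 and 0.0548 for Atp2a2 without such spots, so both scores remained higher in the transgenic section. Ranks among all genes were not computed without these spots.

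Of the 6 abundant genes Casq2 had the widest spread over transgenic spots. Without the blood-rich spots it ran from 1.31 UMIs per 10000 at the 10th percentile to 8.70 at the 90th in the transgenic section, a 6.65-fold range, against 7.44 to 17.7 or 2.37-fold in the control section. Counts fewer per spot spread more by counting alone, which around 1 constant share gives 3.05-fold in the transgenic and 2.07-fold in the control section. For Jph2 the transgenic range of 5.26-fold lay close to the 4.69-fold that counting gives. For Pln the transgenic percentiles were 18.9 and 41.1 UMIs per 10000, beside 23.7 and 35.5 from counting, and for Atp2a2 the range was 1.87-fold beside 1.32-fold. Over all spots, the 4 transgenic quadrants of Casq2 were at 284, 372, 495 and 585 CPM, with the lowest at the top right and the highest at the bottom left. All were far below the control range of 1182 to 1271 CPM. The top right quadrant also held 122487 of the 200909 transgenic UMIs of the hemoglobin gene Hba-a2, and quadrants without blood-rich spots were not computed. The ratio of Casq2 to Ryr2, also over all spots, ran from 0.280 to 0.475 over the transgenic quadrants and from 0.734 to 0.835 over the control quadrants. By distance from the tissue edge, Casq2 was at 430 CPM in the 311 edge spots of the transgenic section. It stayed at 429 and 426 CPM in layers 2 and 3, counted from the edge, and was at 467 CPM in layer 4 or deeper. Other genes also rose from the edge spots to the spots in layer 4 or deeper. Slc8a1 went from 527 to 647 CPM, Atp2a2 from 5893 to 6815, Pln from 2785 to 3127 and Ryr2 from 1075 to 1144. Jph2 did not, at 276 and 266 CPM. Between the same layers Hba-a2 fell from 25394 to 6056 CPM in the transgenic section and from 4199 to 1118 CPM in the control section. In the control section Slc8a1 (293 to 342 CPM), Pln (5528 to 6130), Ryr2 (1513 to 1576) and Jph2 (609 to 672) also rose with depth. Atp2a2 (19758 to 19342) and Casq2 (1222 to 1189) fell there. Layers without blood-rich spots were not computed.

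The levels followed the share of cardiomyocyte markers in a spot within the transgenic section. Without the blood-rich spots, the quartile of transgenic spots with the lowest share had a median of 5.09% marker UMIs and the highest quartile 8.26%. From the lowest to the highest quartile Casq2 went from 252 to 748 CPM, Slc8a1 from 450 to 742, Ryr2 from 856 to 1399, Pln from 2310 to 3829 and Atp2a2 from 5092 to 7598. Cacna1c showed no such order, at 24.2 CPM in the lowest and 26.3 CPM in the highest quartile. Per 1000 cardiomyocyte marker UMIs, Casq2 went from 5.05 to 8.97 between these quartiles, whereas Ryr2 stayed between 16.7 and 17.2 and Slc8a1 between 8.24 and 9.04. On this scale Atp2a2 went down from 102 to 91.2 and Jph2 from 4.61 to 3.92, and Pln was at 46.4 and 46.0.

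**Figure D3:**
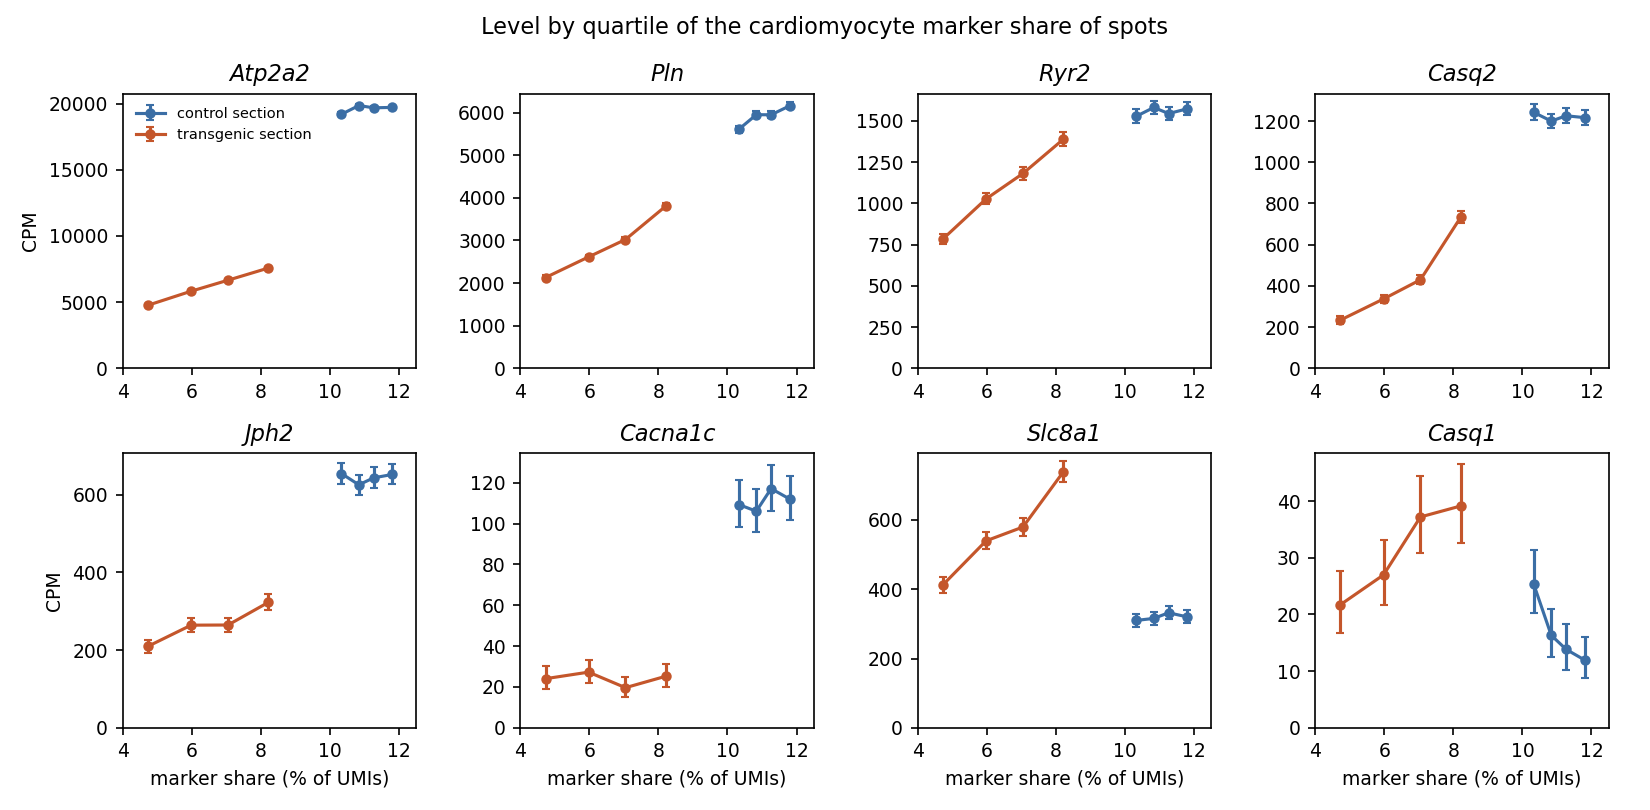
Level in CPM of 8 genes in quartiles of spots ranked by their share of cardiomyocyte marker UMIs, over all spots, with 95% Poisson intervals, in the control section (blue) and the transgenic section (orange). Each point stands at the median marker share of its quartile. The quartile medians of the sections do not meet, and at the highest transgenic quartile Atp2a2 (7573 CPM), Casq2 (734 CPM) and Cacna1c (25.3 CPM) are still below, and Slc8a1 (739 CPM) above, every control quartile. Ryr2 at 1389 CPM is the gene that comes nearest to its control level, and scaled to the markers its direction turns.

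Even the richest transgenic quartile, with a median marker share of 8.22% over all spots, lay below the poorest control quartile at 10.3%. Single spots did overlap. Without blood-rich spots, 502 of 868 transgenic spots had a share within the control range of 6.33% to 15.0%. Only 23 of 1245 control spots had a share within the transgenic range of 3.54% to 9.65%, too few for a matched comparison here. Scaled to the summed cardiomyocyte marker UMIs, which moved every log2 ratio by 0.77, Cacna1c was at -1.44, Atp2a2 at -0.89, Casq2 at -0.72, Jph2 at -0.50 and Pln at -0.26. These 5 stayed lower in the transgenic section, while Ryr2 at 0.27 and Slc8a1 at 1.60 were higher. The markers include Myh6, itself at -1.69 on the CPM scale, so this scale is another description and not a correction.

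Over transgenic spots the ratio of Pln to Atp2a2 was highest where cardiomyocyte markers were, at 0.454, 0.450 and 0.452 in the first 3 quartiles and 0.504 in the highest, without blood-rich spots. Casq2 to Ryr2 followed with 0.294, 0.326, 0.374 and 0.534. In the control section the ratio of Pln to Atp2a2 also rose with the markers, from 0.292 to 0.312, while Casq2 to Ryr2 stayed between 0.760 and 0.810. The quartiles of the sections thus did not overlap in either ratio. Transgenic spots were also ranked by the share of Myh7, the fetal myosin gene, in the UMIs of Myh6 and Myh7, with quartile medians from 43.5% to 68.3%. These quartiles held 221 or 222 spots each, fewer in all than the 924 spots of the section, so some spots were not ranked. How many blood-rich spots were among those left out was not computed. From the lowest to the highest of these quartiles the ratio of Pln to Atp2a2 went from 0.437 to 0.497. That of Casq2 to Ryr2 went from 0.440 to 0.369. Over the same quartiles Cacna1c went from 20.4 to 31.9 CPM and Jph2 from 258 to 284. Atp2a2 went from 6873 to 5614, Casq2 from 483 to 376 and Slc8a1 from 604 to 512. Cacna1c, lower in the transgenic section, was thus highest in its Myh7-richest spots, although the 4 quartiles held only 69, 69, 74 and 100 UMIs of it.

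Pairs of the genes varied together over transgenic spots and hardly over control spots. Among the 6 genes with enough UMIs per spot, Atp2a2, Pln, Ryr2, Casq2, Jph2 and Slc8a1, the Spearman correlation over 1249 control spots ran from -0.07 to 0.14 for the 15 pairs, with a median of 0.01. Over 921 transgenic spots it ran from 0.17 to 0.55 with a median of 0.39, and without blood-rich spots, over 868 spots, from 0.07 to 0.50 with a median of 0.31. The closest pairs without those spots were Pln with Casq2 at 0.50, Pln with Atp2a2 at 0.47 and Atp2a2 with Casq2 at 0.42. Spots share the library and, with their neighbors, depth and tissue, so these values are descriptions with no test. Pairs that involved Cacna1c, Casq1, Fkbp1b or Sln lay between -0.08 and 0.13 in either section, where counts per spot were low.

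**Figure D4:**
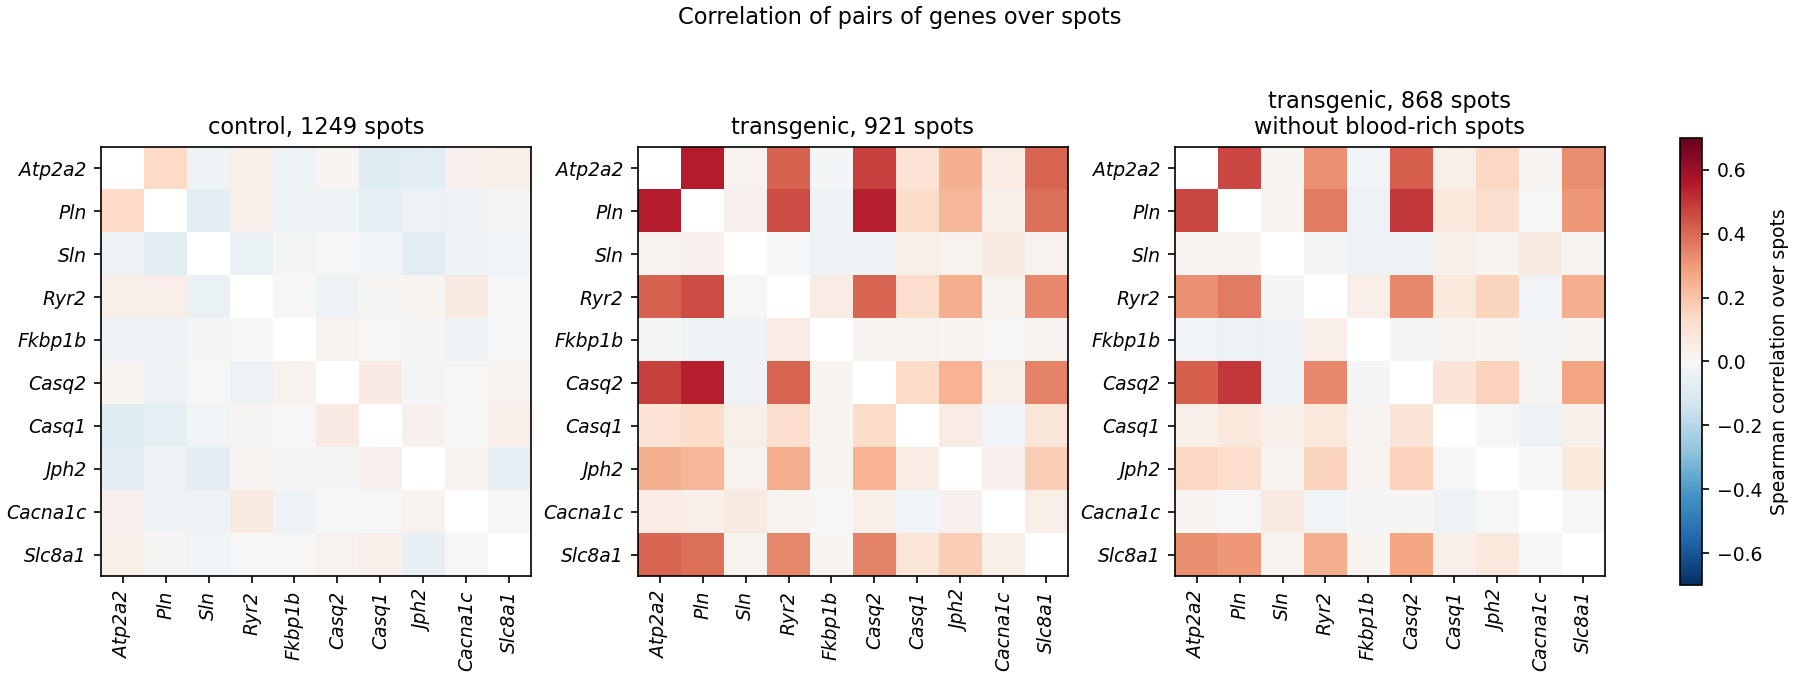
Spearman correlation over spots for each pair of the 10 genes, in the control section, the transgenic section and the transgenic section without blood-rich spots (red positive, blue negative, diagonal left white). The block of Atp2a2, Pln, Ryr2, Casq2, Jph2 and Slc8a1 reaches 0.14 in the control, 0.55 in the transgenic section and 0.50 without blood-rich spots.

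Without blood-rich spots, the 3 genes most like each member over spots differed between the sections, apart from Myl2 for Pln and Cox6a2 for Ryr2. In the transgenic section without blood-rich spots, Pln was most like Myl2 (Pearson 0.68 on square roots, 868 spots), Fabp3 and Myl3, Casq2 most like Myl2 (0.65), Myl3 and Ckmt2, and Atp2a2 most like Fabp3 (0.58), Ckm and Myh6. Slc8a1 was most like Mb (0.41), Myl2 and Ckmt2, and Ryr2 most like Cox6a2 (0.44), Myl2 and Myl3. These neighbors are genes of the contractile apparatus and of energy supply. At the other end, Atp2a2, Pln, Ryr2 and Casq2 were each most opposed to Igfbp7, at -0.61, -0.65, -0.45 and -0.59, and Slc8a1 to Col1a2 at -0.40. Jph2 was weakly like Actn2 (0.21), Tcap and Tnni3, and Cacna1c hardly like any gene, with Adssl1 (0.13), Cdkn1b and Arnt first. In the control section without blood-rich spots, over 1245 spots, the highest correlations of the abundant genes were weaker, such as 0.31 for Pln with Myl2 and 0.16 for Atp2a2 with Mdh1. Casq1 was most like Nppa (0.32), Ankrd1 (0.25) and Tpm2 (0.14) there. In the transgenic section it was most like Myl1 (0.17), a myosin light chain of fast skeletal muscle, Fbln2 (0.15) and Tnnc1 (0.14).

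Sln and Casq1 were also set beside the atrial genes Myl4 and Myl7. In the control section 11 spots held at least 3 UMIs of these genes, and 7 of the 16 control UMIs of Sln lay there, in 4 of the 11 spots (36.4%, 10.9% to 69.2%) against 9 of the other 1245 spots (0.723%, 0.331% to 1.37%). In the transgenic section 77 spots held at least 3 such UMIs, and only 1 of the 10 UMIs of Sln lay there. Casq1 was seen in 28.6% of those 77 spots (18.8% to 40.0%) and in 32.8% of the other 847 (29.7% to 36.1%), so no gathering there was detectable. In the control section it was seen in 27.3% of the 11 spots (6.02% to 61.0%) and in 14.1% of the other 1245 (12.2% to 16.1%). With only 11 spots this left the question undetermined. The 5 atrial markers together went from 0.0103% to 0.0176% of UMIs between the sections, with 4 of the 5 higher in the transgenic section.

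A wider list of 63 genes of calcium handling, of which 62 were measured, placed the 10 genes among their partners. Of the 60 with at least 20 UMIs over both sections, 30 were lower and 30 higher in the transgenic section, where 36.8% of all genes tested were lower, and the median log2 ratio was 0.01 beside 0.20. At least 2-fold lower were 12 and at least 2-fold higher 9, out of 60, beside 5.61% and 13.7% of all genes tested.

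**Figure D5:**
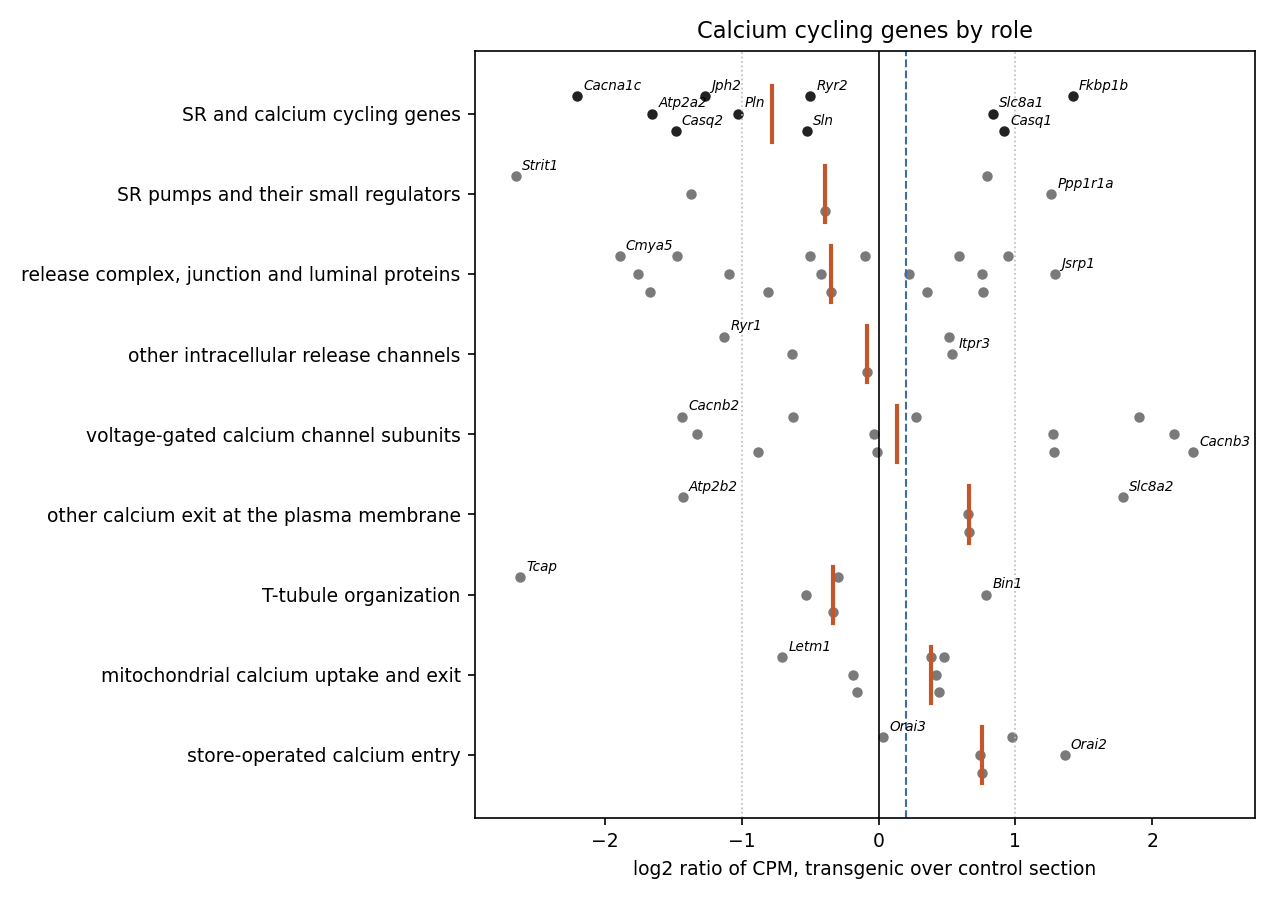
Log2 ratio of CPM, transgenic over control section, for the 10 genes (black) and 60 further calcium handling genes by role (gray), with the lowest gene of each role and the highest of most roles named. Orange bars are medians, the dashed line is the median of all genes tested at 0.20, and dotted lines mark 2-fold. Ryr2 and Sln lie left of 0 here but right of it when the sections are scaled to cardiomyocyte markers.

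Among the partners of SERCA2, Strit1, which encodes the pump activator DWORF, had 272 control and 39 transgenic UMIs. Its log2 ratio of -2.65 (-3.17 to -2.16) was lower than that of any of the 10 genes. Camk2d, a kinase that phosphorylates phospholamban, was at -1.37 (-1.50 to -1.25). Ppp1r1a, inhibitor 1 of the phosphatase that reverses this, was at 1.26 (0.82 to 1.71), and Atp2a3, the pump SERCA3, at 0.80 (0.56 to 1.03). The log2 ratios of the activator gene and the pump gene were thus both below that of Pln.

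In the release complex, 10 of 17 genes were lower, beside 36.8% of all genes tested, and 5 were at least 2-fold lower, beside 5.61%. The lowest were Cmya5 (-1.89) and Asph, which encodes junctin (-1.76). Jsrp1 (1.29) and Calm3, 1 of 3 calmodulin genes (0.94), were the highest. Of the 5 other release channels, Ryr1 and Ryr3 had 24 and 49 UMIs in all and intervals that held 0, and Itpr2 and Itpr3, receptors for inositol trisphosphate, were at 0.51 (0.13 to 0.90) and 0.54 (0.21 to 0.87). Of 12 further genes of calcium channel subunits and their regulators, 6 were lower, beside 36.8% of all genes tested, and 6 higher. The lowest were Cacnb2, the main cardiac β subunit of the channel of Cacna1c (-1.44), and Rrad, a brake on that channel (-1.33). Cacnb3 (2.30, from 96 to 426 UMIs) and Cacna1h, a T-type pore subunit (2.16, from 58 to 233 UMIs), were the highest. Of the 12 genes, 5 were at least 2-fold higher, beside 13.7% of all genes tested, and 2 at least 2-fold lower, beside 5.61%. The 4 pore and β subunits among the 5 had between 58 and 147 UMIs in the control section, against 1598 of Cacna1c and 2620 of Cacnb2.

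Slc8a1 was higher together with Slc8a2, another sodium-calcium exchanger, whose 19 and 59 UMIs gave 1.79 (1.02 to 2.61), and with the plasma membrane pump Atp2b1 (0.66). Atp2b2 was at -1.43 on 20 UMIs and Atp2b4 at 0.65. Of the T-tubule genes, Tcap, which encodes telethonin, was at -2.62 and Dysf at -0.53, while Bin1, which shapes the tubule membrane, was at 0.78 and Mtm1 at -0.30 with an interval that held 0. Of the mitochondrial genes, Letm1 was at -0.71, Smdt1 at -0.19 and Slc8b1 at 0.44. None of the 7 was past 2-fold, beside 5.61% (lower) and 13.7% (higher) of all genes tested. All 5 genes of store-operated calcium entry were above 0, as were most genes tested, and they were led by Orai2 (1.36 on 53 UMIs) and Stim1, the calcium sensor of the reticulum (0.98), with Orai1 (0.74) and Orai3 (0.03) lowest.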

How the data were processed

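Per the labels and the methods, 5 μm FFPE heart sections of 1 control and 1 transgenic mouse were profiled with Visium CytAssist. The authors ran Space Ranger 2.0.0, named in the header of the deposited matrices, and the submitters' processing notes name GRCm39 and bcl2fastq, with no probe set given in the sources used here. The values used are deposited raw UMI counts of each gene in each spot over tissue, which held 14376300 and 12953389 UMIs. Their sums per gene equaled the deposited sums for every gene listed. Moran's I is a score deposited per gene by the authors and was used as given. Deposited p values of Moran's I, scale factors and images were not used.

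UMIs were summed per section and divided by the total, since spots are not replicates. For the same reason the methods' Wilcoxon comparison of spots was not run. A count of 0 was to be set to 3 counts (0.209 and 0.232 CPM), which no member needed. Intervals were exact, except those of a change in a ratio, which used a normal approximation on the log scale of the 4 counts, and were tested on simulated data. Genes with at least 20 UMIs over both sections count as tested, and called means at least 2-fold. Correlations used spots with at least 1000 UMIs. Likeness compared genes with at least 500 UMIs in the section and ranked the 3 highest for each member with at least 200, of which the text names part for the control section, and of the wider list the 2 highest and 2 lowest of each role were named. A gene that this rule picks is not reported here. Named outside this rule, after values were seen, were the genes most opposed in pattern. Other settings scaled by TMM (edgeR 4.0.16), by size factors (DESeq2 1.42.0, R 4.3.3), by cardiomyocyte markers or by totals less the top 50 genes, chose spots in 5 ways, averaged spots at UMIs per 10000, added 1 CPM, thinned spots, or filtered the wider list at 1 or 200 UMIs. Leaving out blood-rich spots was chosen after seeing the maps. The members, gene lists and motifs were chosen with earlier results of these data known. The 725 barcodes shared by the sections are positions of 1 array design, not shared cells. Scripts ran on Python 3.11.15 with pandas 2.3.3, numpy 2.4.6 and scipy 1.17.1.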

Additional observations from a re-analysis of the deposited data

How the results depend on the processing

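Every log2 ratio shifted by -0.16 with TMM factors, by -0.15 with DESeq2 size factors and by -0.09 without the 50 most abundant genes, and 7 genes stayed below 0 under each. Scaling to cardiomyocyte markers moved the log2 ratio of every gene by 0.77. The median of the 10 genes was then -0.0096, Ryr2 turned to 0.27, 1 gene was at least 2-fold lower and 3 were at least 2-fold higher. In the 50% of spots with the highest cardiomyocyte marker share the median was -0.55 and 3 genes were at least 2-fold higher. In the 50% of spots with the lowest erythroid marker share no gene was (0 of 10), and the log2 change of the ratio of Pln to Atp2a2 was 0.59, beside 0.63 over all spots and 0.60 in interior spots. Of the wider list, 5 genes with at least 200 UMIs were at least 2-fold higher, in place of 9. Shares of all genes past 2-fold were computed only for CPM over all spots. The counts under these other settings therefore have no background beside them. Over 12 alternatives, 43 of the 120 log2 ratios of the 10 genes moved past their counting interval and 1 turned, that of Ryr2, while Sln changed sign under 4 with an interval that held 0. Of 66 changes in ratios under 6 choices of spots, 13 moved past their interval and none turned. No paired analysis was possible because the labels give no replicate numbers and each group has 1 section. With 1 section per group no replicate could be left out, the spread between animals is unknown, and a difference between animals, cutting levels or tissue handling cannot be told apart from the genotype. Counting limits the statements on Sln and Fkbp1b.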
